A study of Caenorhabditis elegans with 2 samples.

Results

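The 6 genes described here are the Hox genes of Caenorhabditis elegans: ceh-13, lin-39, mab-5, egl-5, nob-1 and php-3. For each gene, every candidate region of MEC-3 binding was taken whose summit lay between 10000 bp upstream of the gene's 5′ end and the end of the gene (Ensembl annotation of WBcel235, the assembly also named ce11). Without regard to signal, this gave 15 of the 27953 regions in the list made from both replicates together, called the pooled list below. It gave 23 of the 30000 regions of replicate 1 and 11 of the 22464 regions of replicate 2. In the final list of 457 peaks it gave 0.

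MEC-3, a LIM homeodomain transcription factor, was mapped by chromatin immunoprecipitation and sequencing in whole late embryos, in 1 group of 2 biological replicates. The animals were hermaphrodites of strain OP55, genotype unc-119(ed3) III; wgIs55, in which MEC-3 carries GFP and FLAG at its C terminus, and were collected 4 h after they had been synchronized by bleaching. Chromatin was sonicated and precipitated with an antibody to GFP, and no control sample was used here. Both replicates carry the unc-119 allele and the transgene insertion wgIs55, and whole embryos mix all tissues, so a region cannot be assigned to a cell type and few cells of a type cannot be told apart from weak binding in many. Each region has a signal value that the authors gave it. The sources used here do not give the scale of that value. Signals were therefore compared only within a list, in which rank 1 is the highest signal. Candidate lists were deposited as the input of a comparison of replicates by the irreproducible discovery rate, and they include background. The pooled signals ran from 21.8 to 722 with a median of 30.3, and no final peak was below 77.4. Replicate 1 had a median of 16.9 and replicate 2 a median of 18.6. How many reads lie behind each list is unknown.

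Hox genes encode homeodomain transcription factors that give cells their position along the head to tail axis, and in many animals they lie in clusters. In C. elegans ceh-13, a labial relative, acts at the front, lin-39 in the mid-body, mab-5 behind it, and the Abdominal-B relatives egl-5, nob-1 and php-3 in the tail. Hox proteins bind DNA with PBC and Meis cofactors and act in the vulva, in migrating neuroblasts and in neuron classes that include the touch receptor neurons, whose fate needs mec-3.

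All 6 genes lie on chromosome III, at 3 places. lin-39 (WBGene00003024, chrIII:7528641-7536632, minus strand) and ceh-13 (WBGene00000437, chrIII:7555660-7558041, plus strand) face each other with their 5′ ends across 19.0 kb that hold no protein-coding gene. mab-5 (WBGene00003102, chrIII:7776835-7783454, minus strand) and egl-5 (WBGene00001174, chrIII:7814374-7817141, plus strand) also face each other, across 30.9 kb with cyk-7 between them. php-3 (WBGene00004024, chrIII:12074218-12077556, minus strand) and nob-1 (WBGene00003779, chrIII:12077793-12084316, minus strand) follow one another with only 236 bp between them. mab-5 lies 219 kb from ceh-13, and php-3 lies 4257 kb from egl-5. The windows of nob-1 and php-3 overlap, and 2 of the 15 pooled regions belong to both genes.

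The sequences under 6 of the regions are shown because they are the strongest pooled region of each gene and the second region that nob-1 and php-3 share. They were read from the RefSeq copy of WBcel235 on the strand of the gene, 5′ to 3′, and reach 100 bp either side of the summit unless shortened to leave out untranslated sequence. The mab-5 line holds the 82 bp just upstream of the 5′ end, next to a summit inside the first exon. The first nob-1 and php-3 line holds 119 bp, the end of the last nob-1 intron and the last coding exon up to its stop codon. Capitals mark matches, on either strand, to the motifs described further on: ATTA, TGATNNAT or GAGAGA. In the ceh-13 line a TGATNNAT match and an ATTA match share letters.
lin-39, chrIII:7545282-7545482, minus strand: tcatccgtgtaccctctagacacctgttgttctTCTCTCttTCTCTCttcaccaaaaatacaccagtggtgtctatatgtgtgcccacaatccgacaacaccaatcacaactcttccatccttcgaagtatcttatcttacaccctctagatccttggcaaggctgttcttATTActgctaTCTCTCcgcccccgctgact
ceh-13, chrIII:7554712-7554912, plus strand: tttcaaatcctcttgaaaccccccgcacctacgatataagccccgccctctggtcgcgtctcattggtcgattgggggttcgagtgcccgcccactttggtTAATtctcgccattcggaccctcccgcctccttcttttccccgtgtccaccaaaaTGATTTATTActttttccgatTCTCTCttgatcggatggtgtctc
mab-5, chrIII:7783455-7783536, minus strand: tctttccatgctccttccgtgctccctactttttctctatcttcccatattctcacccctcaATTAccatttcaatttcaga
egl-5, chrIII:7812374-7812574, plus strand: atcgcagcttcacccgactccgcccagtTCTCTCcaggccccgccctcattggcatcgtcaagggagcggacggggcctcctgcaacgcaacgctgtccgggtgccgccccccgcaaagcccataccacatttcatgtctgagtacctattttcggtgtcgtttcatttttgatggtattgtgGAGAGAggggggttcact
nob-1 and php-3, chrIII:12078103-12078221, minus strand: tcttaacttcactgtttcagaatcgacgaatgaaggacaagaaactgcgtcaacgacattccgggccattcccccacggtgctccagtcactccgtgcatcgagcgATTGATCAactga
nob-1 and php-3, chrIII:12082092-12082292, minus strand: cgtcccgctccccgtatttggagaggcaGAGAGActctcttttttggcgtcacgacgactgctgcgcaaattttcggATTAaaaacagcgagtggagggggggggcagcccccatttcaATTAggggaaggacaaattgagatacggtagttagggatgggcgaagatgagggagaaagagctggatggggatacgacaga

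**Figure D1:**
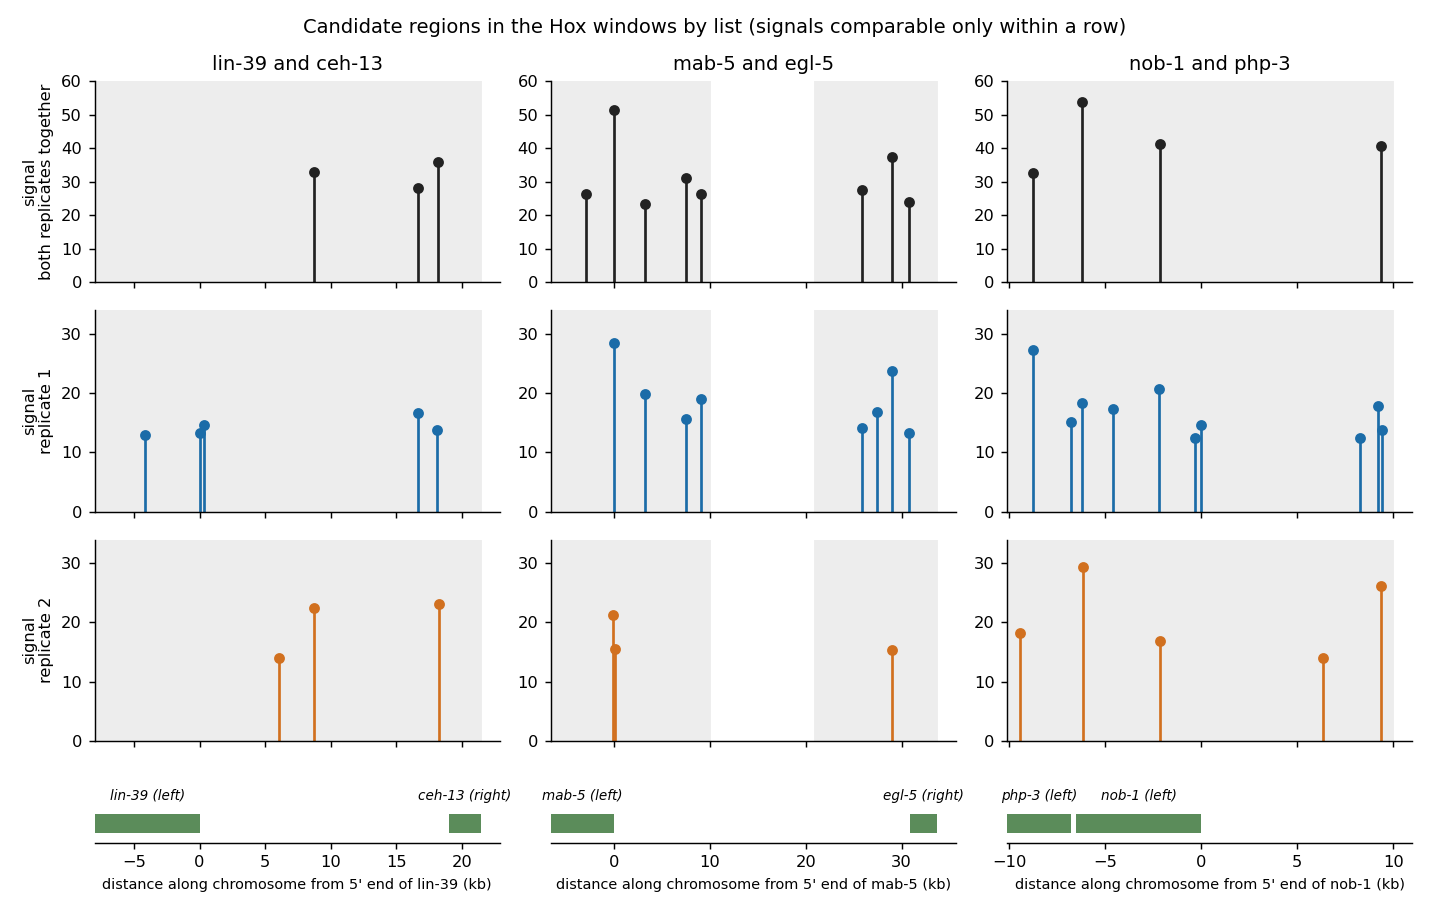
Signal of each candidate region against its distance along the chromosome from the 5′ end of lin-39, mab-5 or nob-1 (kb), for the pooled list, replicate 1 and replicate 2, with grey shading for the windows searched and green bars for genes, each marked by the direction in which it is transcribed. The highest pooled regions, 51.5 at the mab-5 5′ end and 53.8 at the 3′ end of nob-1, have counterparts in both replicates, whereas replicate 1 has 5 regions across lin-39 and ceh-13 with signals of at most 16.6.

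No Hox gene had a final peak. Of the 15 pooled regions, 0 were final peaks (exact 95% upper bound 21.8%), against 1.63% of all pooled regions, a share at which 0.245 of 15 would be final peaks. Counted by gene, 0 of 6 had a final peak in the window, against 6.02% of the 19973 protein-coding genes in windows built the same way. A count of 0 among so few regions cannot be told apart from that background. Every Hox gene did have a pooled candidate region in its window (6 of 6), as did 90.7% of all protein-coding genes.

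Hox regions were of ordinary strength for the pooled list. Their median signal was 32.6, with quartiles of 27.1 and 39.0, against 30.3 with quartiles of 25.3 and 38.4 over all pooled regions. The strongest Hox region, at 53.8, was below the lowest final peak, at 77.4. There were 4 Hox regions among the upper 25% of the list and 6 below its median. A −log10 q of at least 0.5, a limit chosen after the data were seen, was reached by 2 of the 15, against 13.6% of all pooled regions. These 2 were the region at the mab-5 5′ end (0.752) and the region at the 3′ end of nob-1 (0.855).

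ceh-13, the most anterior gene in its action, had 2 pooled regions, both upstream. The stronger one covered chrIII:7554590-7555033, 848 bp upstream of the 5′ end and outside protein-coding genes, with a pooled signal of 36.0 (rank 8578). Its counterpart in replicate 1 had a signal of 13.8 (rank 23261) and lay 58 bp away, and its counterpart in replicate 2 had a signal of 23.2 (rank 5489) and lay 46 bp away on the other side. The 2 replicate summits were thus 104 bp apart, and this region was high in replicate 2 and low in replicate 1. The second, chrIII:7553086-7553529, lay 2352 bp upstream with a signal of 28.0 (rank 16907). It had a counterpart in replicate 1 (signal 16.6, rank 15615) and none in replicate 2, where the nearest summit was 1550 bp away.

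lin-39, which acts in the mid-body and in the vulval precursor cells, had the sparsest window of the 6 in the pooled list, at 0.556 regions per 10 kb. In the replicates it did not: lin-39 had 1.67 per 10 kb in replicate 1 and 1.11 in replicate 2, against 1.62 and 0.808 for ceh-13. Its only pooled region, chrIII:7545160-7545603, lay 8750 bp upstream, between the 2 genes and 227 bp upstream of the microRNA gene cel-mir-231. The pooled signal was 33.0 (rank 11039). Replicate 2 had a region with the same summit (signal 22.5, rank 6081), and the nearest replicate 1 summit was 7900 bp away, so this region rests on replicate 2. Replicate 1 in turn had 2 regions at the lin-39 5′ end, 36 bp upstream (signal 13.3, rank 24943) and 336 bp upstream (signal 14.6, rank 20717), and 1 in an intron 4168 bp downstream (signal 12.9, rank 26432). Neither of those at the 5′ end had a counterpart in replicate 2 or in the pooled list. The other replicate 2 region, 6017 bp upstream, was near the bottom of its list (signal 14.0, rank 22358). No lin-39 region was matched between the replicates.

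mab-5, which acts in the posterior body and turns a migrating neuroblast toward the tail, had 5 pooled regions, the most of any Hox gene. The strongest covered chrIII:7783214-7783657 with its summit 18 bp into the first, untranslated exon. Its pooled signal was 51.5 (rank 2533), with counterparts of 28.6 in replicate 1 (rank 2712) and 21.2 in replicate 2 (rank 7421). The replicate 1 summit lay 1 bp from the pooled one and the replicate 2 summit 70 bp from it, inside coding sequence. Replicate 2 had another, overlapping region with its summit 116 bp upstream of the 5′ end (signal 15.5, rank 18016). That second region had no counterpart within 100 bp in replicate 1. The region at the 5′ end was the only pooled mab-5 region matched in both replicates.

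The other 4 mab-5 regions were weaker. Those 7535 bp upstream (signal 31.0, rank 13146) and 9051 bp upstream (signal 26.5, rank 19105) were closer to the 5′ end of cyk-7 than to that of mab-5. A region 3228 bp upstream had the lowest signal of the 15, at 23.3 (rank 24669). Each of these 3 had a replicate 1 summit within 22 bp, with signals of 15.7, 19.1 and 19.9, and none in replicate 2. The remaining region lay in an intron, 2992 bp downstream (signal 26.4, rank 19210). It had no counterpart in either replicate. This held for 1 of the 15 Hox regions, against 4245 of all 27953 pooled regions.

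egl-5, an Abdominal-B relative needed in tail cells and in the posterior touch neurons, had 3 pooled regions, all upstream. The strongest, chrIII:7812252-7812695, lay 1900 bp upstream with a pooled signal of 37.2 (rank 7752). Replicate 1 had a counterpart of 23.7 (rank 5468), 14 bp away, and replicate 2 one of 15.4 (rank 18108), 68 bp away, so it was high in replicate 1 and low in replicate 2. The regions 5066 bp upstream (signal 27.7, rank 17351) and 98 bp upstream (signal 24.1, rank 23241) had counterparts in replicate 1 only, of 14.1 and 13.3. Another 3 pooled regions lay between the windows of mab-5 and egl-5 and belonged to neither gene, with signals of 29.2, 32.6 and 34.4.

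nob-1 and php-3, the Abdominal-B relatives that act together in posterior embryonic patterning, shared the strongest Hox region. It covered chrIII:12077899-12078342, with the summit in the last coding exon of nob-1, 6195 bp downstream of the nob-1 5′ end and 565 bp upstream of the php-3 5′ end. The pooled signal was 53.8 (rank 2147). Its counterpart had a signal of 18.4 in replicate 1 (rank 12058) and 29.3 in replicate 2 (rank 2181), with summits 1 bp and 58 bp away. In replicate 2 it was the strongest region of any Hox gene, and in replicate 1 it ranked near the middle of the list.

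The second shared region, chrIII:12081970-12082413, lay in an intron of nob-1, 2124 bp downstream of its 5′ end and 4636 bp upstream of that of php-3. It had a pooled signal of 41.2 (rank 5565), with 20.6 in replicate 1 (rank 8762) and 16.9 in replicate 2 (rank 14564). nob-1 alone had a region 9375 bp upstream, chrIII:12093469-12093912, with a pooled signal of 40.7 (rank 5808), 13.7 in replicate 1 (rank 23597) and 26.1 in replicate 2 (rank 3483). Replicate 1 had another, overlapping and stronger region there, with its summit 142 bp from the pooled one (signal 17.8, rank 13248). Within 100 bp of the pooled summit 19.1% of the 24-base words occur elsewhere in the genome, the highest share of the 15, so reads there may be placed less surely. php-3 alone had a region in its coding sequence, chrIII:12075321-12075764, 2013 bp downstream, with a pooled signal of 32.6 (rank 11448) and 27.4 in replicate 1 (rank 3185). Replicate 2 had no summit within 100 bp of it, the nearest being 677 bp away.

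The order of the 3 loci by number of regions depended on the list. Across the joined windows of lin-39 and ceh-13 there were 1.02 pooled regions per 10 kb, across those of mab-5 and egl-5 2.72, and across those of nob-1 and php-3 1.99. In the same order the values were 1.70, 2.72 and 4.98 in replicate 1 and 1.02, 1.02 and 2.49 in replicate 2. nob-1 with php-3 thus had the most regions per length in each replicate, and mab-5 with egl-5 in the pooled list. Between the outer ends of the genes, without the sequence beyond them, the pooled values were 2.73 for mab-5 and egl-5 and 2.97 for nob-1 and php-3. All Hox windows together, 78888 bp, had 1.90 per 10 kb, against 3.33 on the whole of chromosome III and 2.79 on the 6 chromosomes. In replicate 1 the Hox windows had 2.92 per 10 kb, against 3.45 on chromosome III, and in replicate 2 they had 1.39, against 2.68. By gene, the pooled number per 10 kb was 0.556 for lin-39, 1.62 for ceh-13, 1.82 for nob-1, 2.25 for php-3, 2.35 for egl-5 and 3.01 for mab-5, against a median of 2.57 over all protein-coding genes. mab-5 was the only one above that median in the pooled list. In replicate 1, with a median of 2.73, egl-5 (3.13), nob-1 (4.84) and php-3 (5.25) were above it. In replicate 2, with a median of 1.91, nob-1 (2.42) and php-3 (2.25) were.

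The pooled density in the Hox windows was below that of chromosome III both outside and inside genes. Upstream sequence makes up much of each window by construction, and 62.4% of the Hox windows lay outside protein-coding genes, against 30.4% of chromosome III. There were 2.03 pooled regions per 10 kb outside protein-coding genes in the Hox windows, against 2.91 outside them on chromosome III, and 1.69 inside them, against 3.51. In replicate 1 the values outside genes were 2.84 in the Hox windows and 2.97 on chromosome III. In replicate 2 they were 1.42 and 2.60. These counts are of 15, 23 and 11 regions, and no test was made of them.

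Of the 15 pooled regions, 10 (66.7%) had the summit outside protein-coding genes, against 26.7% on chromosome III. Coding sequence and introns held 2 each (13.3%), against 36.0% and 33.1% on chromosome III, and an untranslated exon held 1. The choice of windows sets much of that difference. GC content within 100 bp of the summit had a median of 42.8%, against 42.3% over all pooled regions. Of the 15 regions, 13 (86.7%) held, within the same 100 bp, no 24-base word that occurs elsewhere in the genome, against 73.9% of all pooled regions.

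**Figure D2:**
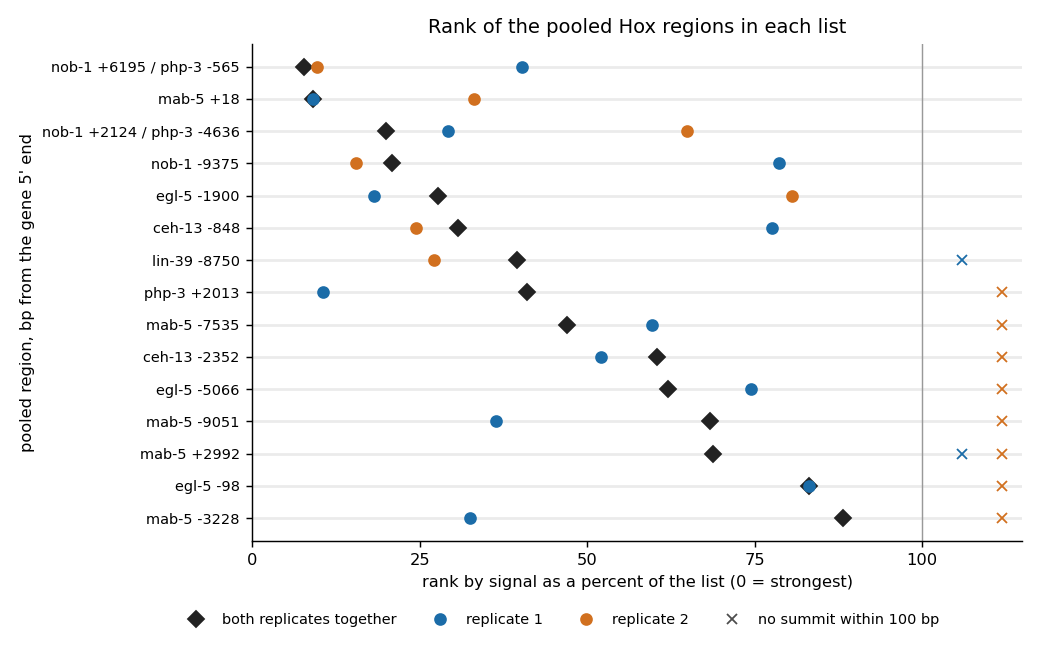
Rank of each of the 15 pooled Hox regions as a percent of the list (0 is the strongest), in the pooled list (black), replicate 1 (blue) and replicate 2 (orange), with a cross where a replicate had no summit within 100 bp. The upper 6 regions have a mark in both replicates and the other 9 do not. Among those 6 the blue and orange marks lie apart in every row.

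The 6 strongest pooled Hox regions were those found in both replicates. A summit within 100 bp in both replicate lists was found for 6 of the 15 (40%, exact 95% interval 16.3 to 67.7), against 25.6% of all pooled regions. The pooled list was made from both replicates, so a region present in both tends to be stronger there. With a limit of 50 bp the number was 0 of 15, against 16.2% of all pooled regions, because in each of the 6 at least 1 replicate summit lay more than 50 bp from the pooled summit. At 200 bp it was again 6, against 36.4%.

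Replicate 1 matched more of the Hox regions than replicate 2 did. A replicate 1 summit lay within 100 bp of 13 of the 15 (86.7%), against 59.6% of all pooled regions, and a replicate 2 summit within 100 bp of 7 (46.7%), against 50.8%. Of the 23 replicate 1 regions, 5 had a replicate 2 summit within 100 bp (21.7%, exact 95% interval 7.46 to 43.7), against 23.4% of all replicate 1 regions. Of the 11 replicate 2 regions, 5 had a replicate 1 summit that close (45.5%, 16.7 to 76.6), against 31.2% of all replicate 2 regions. The intervals cover counting error only. Replicate 1 also has the longer list, and depth was not given, so the part of list length in these matches was not tested.

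The gene with the strongest region differed between the replicates. In replicate 1 the highest signal was 28.6 for mab-5, followed by 27.4 for php-3, 23.7 for egl-5, 20.6 for nob-1, 16.6 for ceh-13 and 14.6 for lin-39. In replicate 2 it was 29.3 for nob-1 and php-3, from the shared region, followed by 23.2 for ceh-13, 22.5 for lin-39, 21.2 for mab-5 and 15.4 for egl-5. In the pooled list the order was nob-1 with php-3 (53.8), mab-5 (51.5), egl-5 (37.2), ceh-13 (36.0) and lin-39 (33.0). mab-5 led replicate 1 and was next to last in replicate 2, and egl-5 was last there.

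Set among all 19973 protein-coding genes by the highest signal in the window, the Hox genes lay between the upper 22.5% and the upper 66.2%. In the pooled list nob-1 and php-3 were at rank 4491 (upper 22.5%), mab-5 at 5112 (25.6%), egl-5 at 10955 (54.8%), ceh-13 at 11611 (58.1%) and lin-39 at 13218 (66.2%). The median highest signal was 44.4 over the 6 Hox genes, of which 2 share 1 region, against 40.7 over the 18112 genes with a region. Windows ran from 12382 bp for ceh-13 to 17992 bp for lin-39, and a longer window has more chances of a high signal.

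Ranks among genes can be set side by side across the replicates. php-3 was in the upper 30.1% of genes in replicate 1 and the upper 23.3% in replicate 2. mab-5 was at 26.5% in replicate 1 and 54.8% in replicate 2, and nob-1 at 59.2% and 23.3%. egl-5 was at 44.2% and 83.0%, ceh-13 at 78.0% and 44.9%, and lin-39 at 85.5% and 48.3%. With 2 replicates there is only this range for each gene, and the ranges of genes next to each other in the order overlap. The range of php-3 did not overlap those of egl-5, ceh-13 and lin-39, and no other pair was apart in this way. Its ends came from different regions, however. In replicate 1 it was the region in php-3 coding sequence (27.4), unmatched in replicate 2. In replicate 2 it was the region shared with nob-1 (29.3), which had 18.4 in replicate 1. The narrow php-3 range is thus not agreement of the replicates on a region. For nob-1, ceh-13 and lin-39 the strongest region also differed between the replicates.

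**Figure D3:**
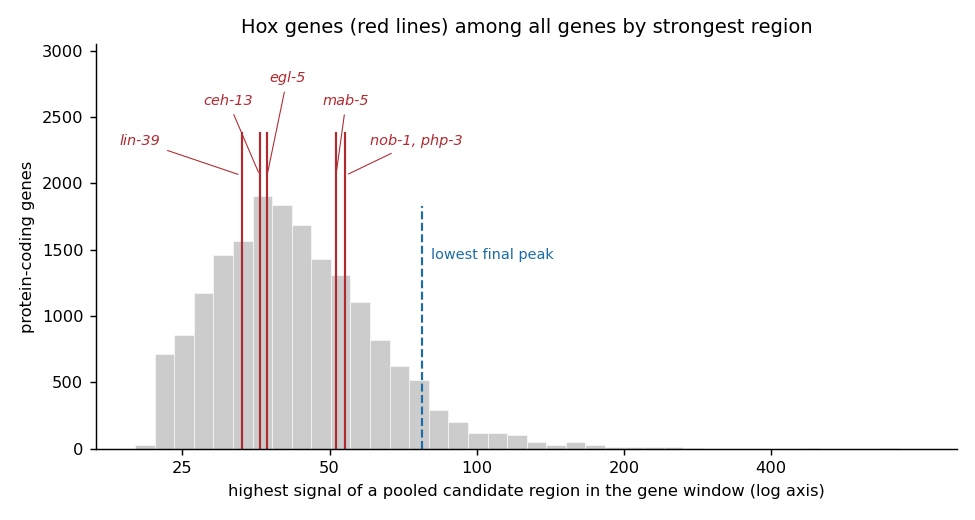
Number of protein-coding genes by the highest pooled signal in their window (log axis), over the 18112 genes with a region. Red lines mark the Hox genes, from 33.0 for lin-39 to 53.8 for nob-1 and php-3, and the dashed line marks the lowest final peak at 77.4, which lies to the right of all of them.

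Regions near the 5′ ends were counted next. A promoter window, here 1000 bp upstream to 500 bp downstream of a transcript's 5′ end, held a pooled region in 4 of the 6 Hox genes (ceh-13, mab-5, egl-5 and php-3), against 41.3% of all protein-coding genes. In replicate 1 it held a region in all 6 genes, against 42.7% of all protein-coding genes, and in replicate 2 in 3 (ceh-13, mab-5 and php-3), against 35.8%. The lists differ in length, with 30000 regions in replicate 1 and 22464 in replicate 2, and no test was made of these counts. The replicate 1 promoter regions of lin-39 (ranks 24943 and 20717), ceh-13 (23261) and egl-5 (24930) were in the lower part of the list. Those of php-3 had ranks of 12058 and 19308, and that of mab-5 had rank 2712. For php-3 the pooled and replicate 2 region in that window is the one inside the last exon of nob-1. nob-1 had 3 replicate 1 regions in the promoter windows of its 3 transcripts. Those 21 bp (signal 14.6, rank 20813) and 302 bp (signal 12.4, rank 28253) downstream of its 5′ end were in the lower part of the list. Neither was matched in replicate 2 or in the pooled list. The third lay farther downstream in the gene, where the replicate 1 regions had ranks from 8762 to 13950.

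Final peaks lay outside the windows of all 6 genes. The nearest to lin-39 was at chrIII:7520764-7520928, 7793 bp beyond the 3′ end of the gene and 15784 bp from its 5′ end. That peak was strong (signal 169, rank 25 of 457) and lay 3 bp upstream of cux-7. For mab-5 and egl-5 the nearest was the strongest peak of the list, upstream of K12H4.5, at 260511 and 229591 bp from their 5′ ends. For nob-1 and php-3 it was a peak of signal 78.4 in an intron of top-3, a topoisomerase gene, at 126125 and 119365 bp.

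Short motifs were counted on both strands in windows of 100 bp either side of the summit, with overlapping matches to different motifs each counted. AATGCAT, a site type of UNC-86 paired with MEC-3, was in 0 of the 15 Hox regions, against 2.54% of all pooled regions, and the POU octamer ATGCAAAT was in 0, against 1.50%. TAATTA, a longer homeodomain site, was in 3 (20%), against 6.18%, and its core ATTA in 13 (86.7%), against 71.1%. TGATNNAT, a site type of Hox proteins with PBC cofactors, was in 3 (20%), against 11.9%, and the Meis site TGACAG in 1 (6.67%), against 6.68%. The 3 regions with TAATTA were those 3228 and 7535 bp upstream of mab-5 and 9375 bp upstream of nob-1.

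To set these shares beside the sequence of the windows themselves, the same motifs were counted in 390 consecutive stretches of equal length that tile the windows. There TAATTA was in 14.9%, ATTA in 87.9% and TGATNNAT in 22.3%, close to the shares under the summits. AATGCAT was in 2.31% and ATGCAAAT in 2.05%. A match of these letters is a description of the sequence, not a binding site, and 15 regions are too few to separate 0 from shares this low.

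GAGAGA was in 8 of the 15 Hox regions (53.3%), against 15.7% of all pooled regions, 15.9% of the stretches that tile the Hox windows and 10.8% of those that tile chromosome III. Each of the 6 genes had at least 1 region with it: the lin-39 region, both ceh-13 regions, the mab-5 region 9051 bp upstream, the egl-5 regions 1900 and 98 bp upstream, and both regions shared by nob-1 and php-3. In the printed lines it is seen 3 times for lin-39, 2 times for egl-5, and 1 time each for ceh-13 and the second nob-1 and php-3 line. The first nob-1 and php-3 line, which was shortened, shows none, because its match is not wholly within the part printed. It was not under the mab-5 5′ end, the second strongest Hox region. The matches depended on the summit used. Among the Hox regions of replicate 1 and those of replicate 2 the share with GAGAGA was lower than among the pooled ones. The share over all regions of those lists was not counted. GAGAGA was absent around the replicate 1 summits of the stronger ceh-13 region and the shared region in a nob-1 intron. It was also absent around the replicate 2 summit of the strongest shared region. At the egl-5 region 5066 bp upstream it was present around the replicate 1 summit and not around the pooled one. No test was made of the count among 15 regions.

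**Figure D4:**
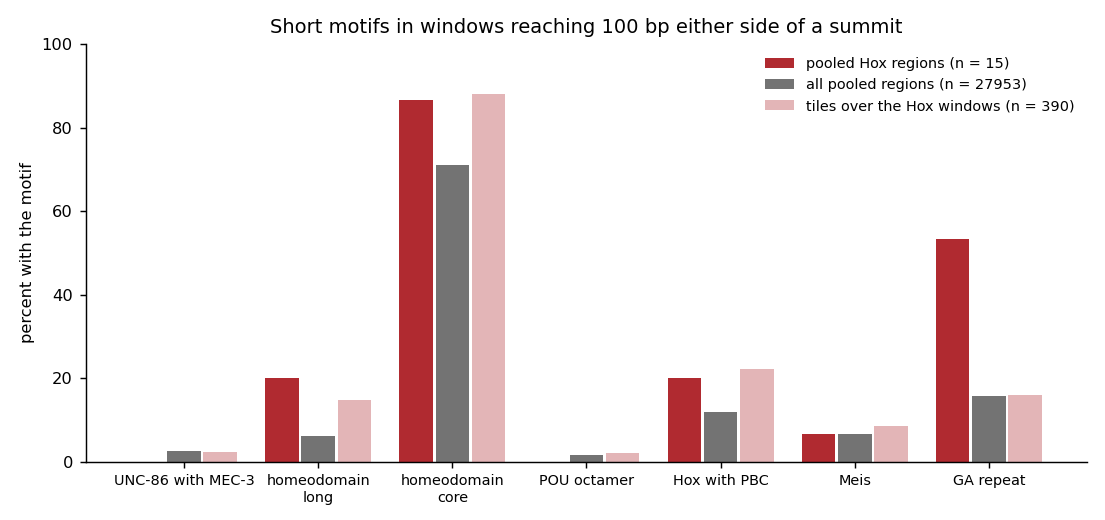
Percent of windows reaching 100 bp either side of a summit that hold each motif, for the 15 pooled Hox regions (red), all 27953 pooled regions (grey) and 390 stretches that tile the Hox windows (pink). The GA repeat, GAGAGA, stands at 53.3% in the Hox regions and near 16% in both other sets, and the UNC-86 with MEC-3 site and the POU octamer have no red bar because their count was 0.

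Genes that work with the Hox genes were followed in the same windows. The 6 Hox genes, with 0 final peaks, had a median highest signal of 44.4, against 38.7 for 5 Hox cofactor genes, which also had 0 final peaks. The strongest cofactor genes were the Meis relative unc-62 (67.5), the PBC gene ceh-20 (48.2), the Meis-related psa-3 (38.7) and the PBC gene ceh-60 (37.6). The regions behind the ceh-20, psa-3 and ceh-60 values lay closer to the 5′ ends of eef-1A.1, pqn-36 and ilys-5. Of 10 chromatin and RNA regulators of Hox genes 2 had a final peak, against 6.02% of all protein-coding genes, and their median was 53.7. These were set-2, a histone methyltransferase gene (110), and sor-3 (94.3), followed by sop-2 (74.0) and sor-1 (65.9), all 3 of which act like Polycomb genes in keeping Hox genes silent. The sop-2 region lay closer to the 5′ end of C44C11.6.

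Of 13 patterning and Wnt regulators 3 had a final peak, again against 6.02% of all protein-coding genes, with a median of 59.2: lin-17, a Frizzled receptor gene (96.8), pop-1, the TCF factor of the Wnt pathway (81.8), and lin-1, an ETS factor gene (77.7). pry-1, an Axin relative, was next at 72.7, from a region closer to the 5′ end of ZK849.1. Of 13 targets and effectors 1 had a final peak, against the same share of all genes, the fibroblast growth factor gene egl-17 (142), and the median was 46.5. It was followed by the GATA factor gene elt-6 (73.4), the POU gene unc-86 (61.6) and the GATA factor gene egl-18 (61.2). The egl-18 region lay closer to the 5′ end of elt-6. mec-3 itself had no pooled region in its window, where 90.7% of all protein-coding genes had at least 1. In the mec-3 window replicate 1 had 1 region (signal 13.6) and replicate 2 had 2 (highest signal 20.4).

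**Figure D5:**
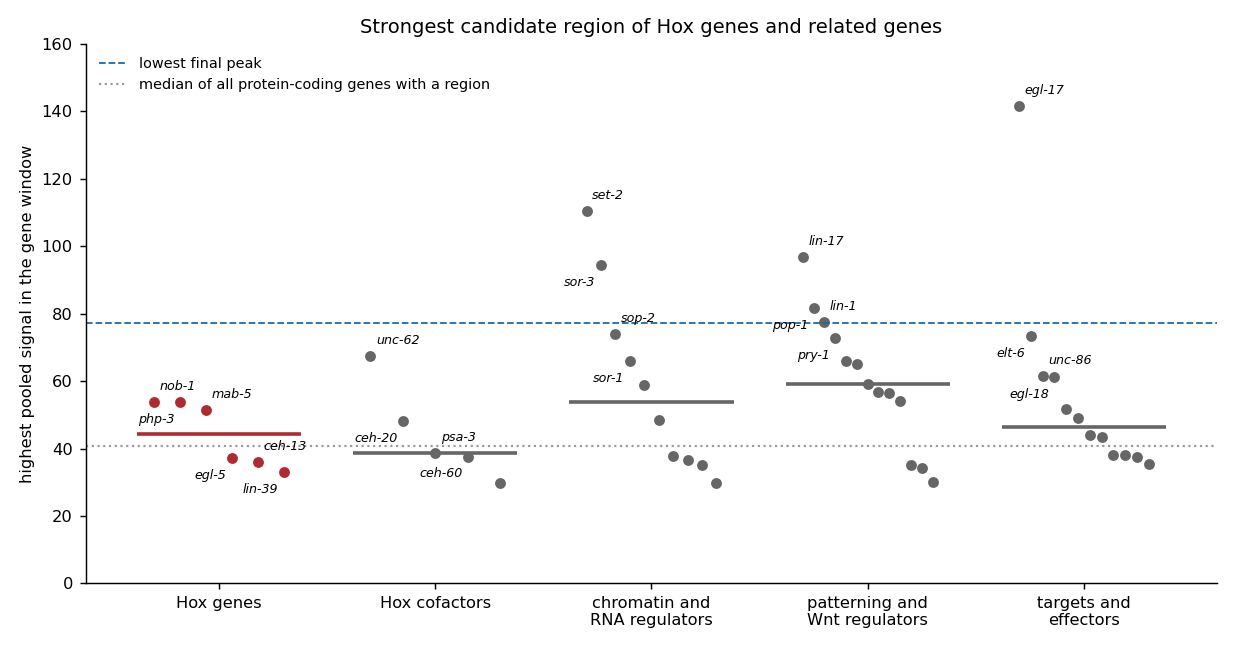
Highest pooled signal in the window of each gene, for the Hox genes (red) and 4 lists of related genes (grey), with a bar at each list's median, a dashed line at the lowest final peak (77.4) and a dotted line at the median of all genes with a region (40.7). The Hox genes lie between 33.0 and 53.8, with none at the dashed line, and 6 of the related genes reach it.

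The Hox genes, with a final peak at 0 of 6 and a median highest signal of 44.4, can also be set beside the 62 other genes named ceh, most of them homeobox genes. Of these 7 had a final peak, where the share over all protein-coding genes was 6.02%, and their median was 41.8. These counts are small and no test was made between lists. By number of pooled regions per length and highest signal in each of the 3 lists, compared as percentile ranks, the genes most like nob-1 were K02C4.3 (distance 4.39) and snap-29, a SNARE gene (6.53). Those most like php-3 were ulp-2, a SUMO protease gene (5.03), and sox-3, a SOX factor gene (5.38). Each likeness is over 4 ranks from 2 replicates and their pooled list.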

How the data were processed

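The authors deposited region lists, not reads: 1 candidate list per replicate, 1 from both replicates together, and a final list made from these, per the file lists deposited with them. Each region carries a signal value and the −log10 of a q-value, both as the authors deposited them, and neither was rescaled. Lists on ce11 were used, and the same lists on ce10 were not used here. Not given in the sources used here are the aligner, peak caller, read filters, read numbers and threshold. A control is named among the labels and was not analysed here.

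Genes came from Ensembl release 115 on WBcel235, with bases from RefSeq for the same assembly. A summit in the window from 10000 bp upstream of the 5′ end to the gene end assigned a region to a gene, and summits within 100 bp counted as matched. Coordinates are 1-based. Multi-copy sequence was measured within 100 bp of the summit, as 24-base words found more than once in the genome. Intervals are exact Clopper-Pearson 95% intervals and cover counting error only. The replicates are labelled as biological, with no control group, so no test between conditions was made.

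The members, gene lists and motifs were chosen with earlier results of these data known, and nothing here is independent support for those results. Named genes are all 6 members, the gene with the nearest 5′ end, genes between members, up to 4 genes of each list by highest pooled signal, and the 2 genes most like the strongest members by Euclidean distance of 4 percentile ranks. The counting steps were tested on simulated data. Alternatives were the window length, the overlap rule, the q-value limit, the match distance, the promoter window, the upper part of the final list and each replicate alone. The number of columns of other samples left unused was 0. Python 3.11.15, numpy 2.4.6, pandas 2.3.3 and scipy 1.17.1 were used.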

Additional observations from a re-analysis of the deposited data

How the results depend on the processing

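The count of 0 final peaks at the Hox genes was the same with 1 bp of overlap, the only setting here that could have raised it. Windows from 5000 and 2000 bp upstream, either limit on −log10 q and the upper part of the final list by signal can only remove peaks. The count of 0 was therefore fixed in advance under those settings. The number of pooled regions, 15, was 10 with windows from 5000 bp upstream and 8 with windows from 2000 bp upstream. It was 2 at −log10 q of at least 0.5 (a limit chosen after seeing the data) and 0 at 2. Leaving out a replicate gave 11 to 23, from the list of the other replicate alone. The number found in both replicates, 6, was 5 with windows from 5000 or 2000 bp upstream. It was 2 at −log10 q of at least 0.5, 0 at 2 and 0 with summits matched within 50 bp. The median signal of 32.6 was 52.7 at −log10 q of at least 0.5 and had no value at 2, where no region was left. It was 15.7 to 18.3 without 1 replicate, on the lower scale of those lists. With promoter windows from 500 bp upstream, 2 regions were left of 4. Where a cause is not given by the setting itself, it was not tested. The highest signal of each gene was the same in windows from 5000 and 2000 bp upstream for 5 of 5 genes with a region left, lin-39 having none. No paired analysis was possible because there is only 1 group. Read numbers are unknown, so what depth limits could not be stated.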
